A study of Mus musculus with 4 samples.

Results

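Chromosome 11 of the mouse zygote held 3756 of the 56036 H3K27me2 peaks in 4 deposited peak lists, and it was chosen by its number of maternal peaks per Mb, which was higher than on any other chromosome in both genotypes. The members are the peaks of each list that lie on chromosome 11, with the chromosome 11 values of a deposited table of read coverage. They numbered 555 of 5744 maternal and 1062 of 17863 paternal peaks in Ezh2m+/p+ zygotes, and 712 of 9606 maternal and 1427 of 22823 paternal peaks in Ezh2m-/p+ zygotes. H3K27me2 was profiled by ULI-NChIP-seq, which sequences the DNA of nucleosomes precipitated from native chromatin of very few cells after MNase digestion. The zygotes were collected at pronuclear stage PN5 without polar bodies and were made by fertilizing C57BL/6J eggs in vitro with PWK/PhJ sperm. Ezh2m+/p+ zygotes had mothers with floxed Ezh2 alleles (Ezh2 fl/fl), and Ezh2m-/p+ zygotes had mothers that also carried Gdf9-Cre, which removes the floxed exon in growing oocytes only, so the floxed alleles were shared by the mothers of both groups and the sperm brought a wild-type Ezh2 allele to both. Zygotes were pooled, and each genotype had 1 H3K27me2 library and 1 input library made without the antibody. No replicate checks a difference between genotypes, no p-value is given, and intervals (95%, Wilson) cover counting error only.

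H3K27me2 is the dimethylated form of lysine 27 of histone H3. It is placed by Polycomb repressive complex 2, in which EZH2 or its paralog EZH1 is the catalytic subunit, and it is both a mark of its own and the step before H3K27me3, the mark of Polycomb-silenced developmental genes. In somatic cells H3K27me2 covers broad intergenic and intragenic territory. In the zygote the maternal and paternal genomes lie in separate pronuclei and differ in their histone marks, because the sperm genome is repackaged with histones of the egg after fertilization. Reads were therefore assigned to a parent of origin through the sequence variants between C57BL/6 (maternal) and PWK (paternal).

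The promoters below are shown by the 250 bases before the start, and a peak need not cover all of these bases. They are the genes named by the rule for the text whose RefSeq promoter (GRCm38.p6, the build mm10 of the lists) was overlapped by a peak, restricted to 6 examples without an annotated exon in the 250 bases before the start. CpG dinucleotides are in capitals, since CpG content is the feature in which Polycomb-marked promoters usually stand out. Il3 encodes the cytokine interleukin-3 and was the only gene of chromosome 11 with a promoter overlapped in both maternal lists. Krt32 encodes a hair keratin and was overlapped in the Ezh2m-/p+ maternal list. Uqcr10, which encodes a small subunit of mitochondrial complex III, was overlapped in the Ezh2m+/p+ paternal list. Galnt10 (a glycosyltransferase that starts mucin-type O-glycans), Rap1gap2 (a GTPase-activating protein of RAP1) and Kcnj2 (an inwardly rectifying potassium channel) were overlapped in the Ezh2m-/p+ paternal list. The windows lie at chr11:54267280-54267529 (minus strand) for Il3, chr11:100088270-100088519 (minus strand) for Krt32, chr11:4704345-4704594 (minus strand) for Uqcr10, chr11:57645192-57645441 (plus strand) for Galnt10, chr11:74590187-74590436 (minus strand) for Rap1gap2 and chr11:111065914-111066163 (plus strand) for Kcnj2.
Il3: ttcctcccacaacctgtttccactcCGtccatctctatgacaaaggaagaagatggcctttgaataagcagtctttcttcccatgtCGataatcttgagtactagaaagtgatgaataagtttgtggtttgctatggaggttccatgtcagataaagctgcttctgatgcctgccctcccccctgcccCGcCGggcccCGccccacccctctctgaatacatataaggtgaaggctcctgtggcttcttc
Krt32: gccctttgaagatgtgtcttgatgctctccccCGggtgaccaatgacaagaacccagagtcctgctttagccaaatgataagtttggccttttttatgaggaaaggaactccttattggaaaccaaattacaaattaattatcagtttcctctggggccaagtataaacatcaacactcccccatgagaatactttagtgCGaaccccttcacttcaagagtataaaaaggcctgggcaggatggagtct
Uqcr10: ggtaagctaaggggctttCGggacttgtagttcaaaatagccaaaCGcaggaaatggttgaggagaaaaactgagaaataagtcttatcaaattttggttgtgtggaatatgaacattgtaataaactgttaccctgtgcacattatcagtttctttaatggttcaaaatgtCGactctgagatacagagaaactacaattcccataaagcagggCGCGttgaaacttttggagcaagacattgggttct
Galnt10: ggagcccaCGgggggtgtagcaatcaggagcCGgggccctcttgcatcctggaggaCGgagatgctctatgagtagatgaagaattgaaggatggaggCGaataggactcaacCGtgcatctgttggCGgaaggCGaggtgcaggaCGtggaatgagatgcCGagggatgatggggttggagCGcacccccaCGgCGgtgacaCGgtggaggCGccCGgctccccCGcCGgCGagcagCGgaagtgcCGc
Rap1gap2: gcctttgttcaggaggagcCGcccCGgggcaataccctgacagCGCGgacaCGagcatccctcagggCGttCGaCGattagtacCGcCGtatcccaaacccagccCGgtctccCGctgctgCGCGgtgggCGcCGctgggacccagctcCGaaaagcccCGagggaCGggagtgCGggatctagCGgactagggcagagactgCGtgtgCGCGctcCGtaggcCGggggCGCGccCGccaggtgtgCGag
Kcnj2: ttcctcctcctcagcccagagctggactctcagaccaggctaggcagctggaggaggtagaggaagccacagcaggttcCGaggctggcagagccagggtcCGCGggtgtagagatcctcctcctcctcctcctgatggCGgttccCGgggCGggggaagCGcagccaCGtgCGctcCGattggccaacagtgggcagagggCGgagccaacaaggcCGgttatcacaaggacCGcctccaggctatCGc
The Il3 window held 5 CpG, Krt32 2 and Uqcr10 5, while Galnt10 held 20, Rap1gap2 30 and Kcnj2 14. The windows of Mrps24 (15 CpG), Tenm2 (2) and Abr (7) met the same conditions in the Ezh2m-/p+ paternal list and are not printed, so the windows of that list ranged from 2 to 30 and the examples show no rule for it. Over the 2289 RefSeq promoters of chromosome 11 the median was 8 CpG in the same 250 bases. A match to a peak says only that the peak and the window share at least 1 base. The Uqcr10 peak (chr11:4703001-4704399) ended inside the printed bases, so most of these lay outside it.

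The density of peaks on chromosome 11 is a description, since maternal peaks per Mb chose the chromosome. In the Ezh2m+/p+ maternal list it held 4.55 peaks per Mb, and chromosome 2 came next with 3.95. In the Ezh2m-/p+ maternal list it held 5.83, and chromosome 9 came next with 5.49. The medians of the other 19 chromosomes were 2.04 and 3.44. In the paternal lists, which the choice did not use, chromosome 11 held 8.70 peaks per Mb (rank 5 of 20) in Ezh2m+/p+ and 11.7 (rank 2) in Ezh2m-/p+, against medians of 6.04 and 8.07 on the others. Chromosome 11 makes up 4.64% of the length of chromosomes 1 to 19 and X, and it held 9.66% and 7.41% of the maternal lists and 5.95% and 6.25% of the paternal lists of Ezh2m+/p+ and Ezh2m-/p+ zygotes. The peaks covered 1.47% of the chromosome in the Ezh2m+/p+ maternal list, 1.43% in the Ezh2m-/p+ maternal list, 1.80% in the Ezh2m+/p+ paternal list and 2.86% in the Ezh2m-/p+ paternal list. By covered length the Ezh2m-/p+ maternal genome of chromosome 11 came next to chromosome 9, which reached 1.43% as well.

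**Figure D1:**
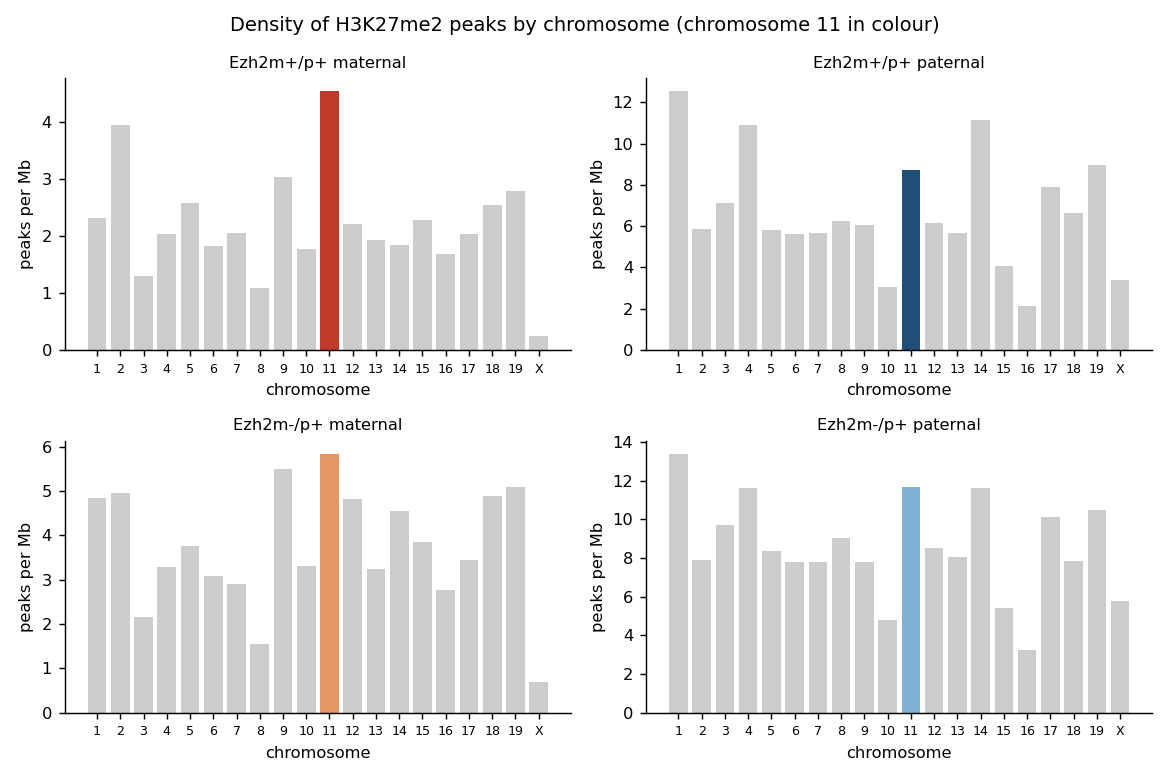
Peaks per Mb (vertical axis) on chromosomes 1 to 19 and X (horizontal axis) in the 4 peak lists, 1 bar per chromosome, with chromosome 11 in colour. Chromosome 11 is the highest bar in both maternal lists (4.55 and 5.83 peaks per Mb) and ranks 5 and 2 in the paternal lists.

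Chromosome 11 is also rich in genes and in G and C bases. It has 1637 protein-coding genes in GENCODE, or 13.4 per Mb (rank 2 of 20, median of the others 7.54), and a GC content of 43.8% (rank 1, median of the others 41.7%). Counted per 100 protein-coding genes, the maternal peaks were not the densest. There were 33.9 Ezh2m+/p+ maternal peaks (rank 5) and 43.4 Ezh2m-/p+ maternal peaks (rank 10) per 100 genes, and 64.8 (rank 13) and 87.1 (rank 14) paternal peaks. Across the 20 chromosomes the density of Ezh2m+/p+ maternal peaks had a Spearman rho of 0.64 with GC content and 0.46 with gene density. For Ezh2m-/p+ maternal peaks these were 0.45 and 0.29, and for the paternal lists they lay between 0.16 and 0.27. The chromosomes share their libraries, and chromosome 11 is one of the points.

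The coverage table gave the opposite order of the parents. Reads of the maternal genome covered 33.3% of chromosome 11 in Ezh2m+/p+ zygotes and 45.1% in Ezh2m-/p+ zygotes, in both cases the highest of the 20 chromosomes. Reads of the paternal genome covered 2.87% and 4.15% (rank 4 in both). The maternal genome thus had 11.6 times the paternal coverage in Ezh2m+/p+ and 10.9 times in Ezh2m-/p+, while the paternal lists held 1.91 and 2.00 times as many peaks as the maternal lists and covered 1.23 and 2.00 times as many bases. The order of the peak numbers in Ezh2m+/p+ turned among peaks over 2000 bp, of which 429 were maternal and 336 paternal, and in Ezh2m-/p+ it did not (375 and 598). With a fold over 10 there were 220 maternal and 868 paternal peaks in Ezh2m+/p+, and 512 and 955 in Ezh2m-/p+. Joining peaks under 10 kb apart left 494 and 634, and 638 and 779, so the ratio of peak numbers depends on the setting. The ratio of coverages on chromosome 11 was close to the median of the others, 11.6 and 10.97, and ranked 11 of 20 in both genotypes. Coverage of Ezh2m-/p+ over Ezh2m+/p+ zygotes was 1.36 for the maternal and 1.45 for the paternal genome. These fractions carry no read totals and no scaling to the number of reads is described for them, so depth and the mark cannot be fully told apart in a ratio between the libraries. The study's reporting form lists fewer uniquely mapped reads for the Ezh2m-/p+ than for the Ezh2m+/p+ H3K27me2 library, the opposite order to the coverage, but gives no totals per parental genome.

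Along the chromosome, most windows of 1 Mb held peaks of each parental genome, and paternal peaks were more concentrated in the fullest windows. Of the 119 windows of 1 Mb whose bases are mostly known, 104 (87.4%, interval 80.2 to 92.2) held an Ezh2m+/p+ maternal peak and 108 (90.8%, 84.2 to 94.8) an Ezh2m-/p+ maternal peak. For the paternal genome these were 97 (81.5%, 73.6 to 87.5) and 99 (83.2%, 75.5 to 88.8), and these intervals overlap those of the maternal genome. Among peaks with a fold over 10 the order turned in Ezh2m+/p+, with 71.4% of windows for the maternal and 79.8% for the paternal genome. In Ezh2m-/p+ it did not turn (87.4% and 77.3%). The fullest window held 16 and 21 maternal peaks but 67 and 88 paternal peaks. Windows with 20 or more peaks numbered 0 and 3 in the maternal lists, and 11 and 21 in the paternal lists, where they held 44.7% and 57.8% of all paternal peaks of the chromosome. The 10 fullest windows held 22.7% and 23.0% of the maternal peaks and 42.5% and 40.3% of the paternal peaks.

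**Figure D2:**
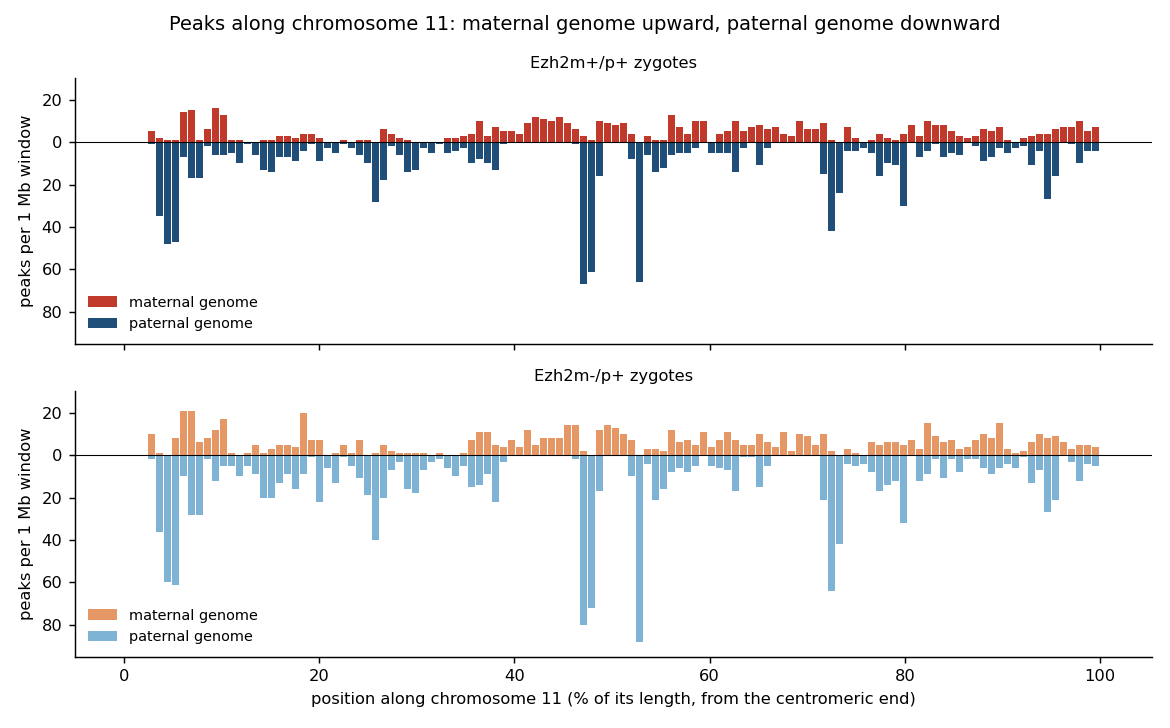
Number of peaks in each 1 Mb window (vertical axis, maternal genome upward and paternal genome downward) along chromosome 11 (horizontal axis, % of its length from the centromeric end) in Ezh2m+/p+ (top) and Ezh2m-/p+ (bottom) zygotes. Paternal peaks stand in a few tall columns of up to 67 and 88 peaks, maternal peaks reach 16 and 21 at most, and several stretches have maternal peaks only.

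Windows ranked alike by their number of peaks in the 2 genotypes, more closely for the paternal genome. Between the genotypes, the number of peaks per window had a Spearman rho of 0.95 for the paternal genome and 0.73 for the maternal genome over the 119 windows. Between the parental genomes rho lay between -0.34 and -0.20. With the GC content of the window rho was 0.49 and 0.41 for the maternal lists and 0.10 and 0.05 for the paternal lists, and with the number of genes that start in it 0.40 and 0.35 against -0.01 and -0.04. Windows of 1 chromosome share their libraries and are neighbours, so these values are descriptions. Both genotypes come from the same cross, with reads assigned through the same variants, and the part of variant density was not tested. A window without a peak may lack assignable reads. Of the 119 windows, 76 held peaks of both parental genomes in both genotypes, 20 held maternal peaks in both genotypes and no paternal peak in either, and 5 were the reverse. The 20 windows with maternal peaks only had a median GC content of 45.8% and a median of 17.5 protein-coding genes, against 44.2% and 10.5 in the windows with both.

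The longest stretch without any paternal peak in either genotype ran from chr11:47130000 to chr11:56943600, or 9.81 Mb. It held 82 Ezh2m+/p+ and 84 Ezh2m-/p+ maternal peaks, and 44 of its 140 protein-coding genes carried a maternal peak in either genotype, where 383 of the 1637 genes of the chromosome (23.4%) and 18.9% of those of all chromosomes did. Among them were the T helper cytokine gene Il3, Col23a1 (a transmembrane collagen, 5 and 1 peaks), Fstl4 (a follistatin-like protein, 4 and 2), Adamts2 (the procollagen N-proteinase, 1 and 3), Glra1 (a glycine receptor subunit, 1 and 2) and Slc22a4 (an organic cation transporter, 2 and 1). The next stretch, chr11:80871200 to chr11:87402200 (6.53 Mb), held 40 and 45 maternal peaks, intergenic ones included, and 25 of its 85 genes carried one, among them Asic2 (an acid-sensing sodium channel, 8 and 5 peaks), Bcas3 (3 and 7) and Acaca (acetyl-CoA carboxylase, 2 and 4). The third, chr11:59237400 to chr11:63336400 (4.10 Mb), held 36 and 51 maternal peaks, and 30 of its 75 genes carried one, among them Specc1 (5 and 7), Tom1l2 (5 and 2), Mprip (a myosin phosphatase partner, 3 and 3) and Rai1 (1 and 2). The longest paternal gap of chromosome 11 ranked 12 of 20, with a median of 11.9 Mb on the others.

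The longest stretch without a maternal peak was 2.61 Mb, the shortest such value of the 20 chromosomes, where the median of the others was 6.54 Mb. That rank goes with the high density that chose the chromosome. It ran from chr11:37333200 to chr11:39946000, has no protein-coding gene, and held 7 paternal peaks in each genotype. The second maternal gap was of another kind. From chr11:57227800 to chr11:58998600 (1.77 Mb) no maternal peak was listed, while the paternal lists held 127 peaks in Ezh2m+/p+ (71.7 per Mb) and, in Ezh2m-/p+, 149 (84.1 per Mb), and 90 of the 127 overlapped one of the 149. Paternal peaks of either genotype lay in 40 of its 53 protein-coding genes, where 324 of the 1637 genes of the chromosome (19.8%) and 20.4% of those of all chromosomes had one, and the stretch was picked for its peaks. They included Galnt10 (13 and 17 peaks), Fam114a2 (5 and 4), Irgm2, an interferon-inducible GTPase (5 and 3), Larp1, an RNA-binding regulator of ribosomal protein mRNAs (2 and 6), and several olfactory receptor genes with 1 or 2 peaks each.

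Hand1, a transcription factor gene of heart and trophoblast development, lies in this stretch and had the longest peak of the paternal lists. In Ezh2m-/p+ zygotes a peak of 21199 bp (chr11:57818401-57839599, fold 10.7) covered the whole gene and its start. In Ezh2m+/p+ zygotes no peak overlapped the gene, and 3 separate peaks lay on both sides of it in nearly the same span, at chr11:57817601-57822599 (fold 10.3), chr11:57823401-57825999 (fold 217) and chr11:57835401-57838999 (fold 19.6). Counting all peaks assigned to Hand1 as the nearest gene, the Ezh2m+/p+ paternal list had 19 peaks over 60.6 kb and the Ezh2m-/p+ paternal list 11 peaks over 74.99 kb, between chr11:57817601 and chr11:57922199. The lower number of peaks in Ezh2m-/p+ thus went with a larger covered length. Neither maternal list had a peak assigned to Hand1.

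The fullest paternal window of Ezh2m-/p+ zygotes was chr11:64000001-65000000, where 66 paternal peaks of Ezh2m+/p+ zygotes covered 17.1% and 88 of Ezh2m-/p+ zygotes covered 31.1%, and no maternal peak was listed in either genotype. It has 3 protein-coding genes. Its peaks were assigned mainly to F930015N05Rik (34 peaks over 93.4 kb and 36 over 157 kb), to Elac2, a tRNA-processing nuclease gene (14 over 35.8 kb and 23 over 61.8 kb), and to Hs3st3a1, a heparan sulfate sulfotransferase gene (12 over 27.4 kb and 21 over 66.6 kb). The fullest of Ezh2m+/p+ zygotes was chr11:57000001-58000000 (67 and 80 paternal and 3 and 2 maternal peaks), which together with the next window overlaps the maternal gap described above. That next window, chr11:58000001-59000000, held 61 and 72 paternal and 1 and 0 maternal peaks. The fullest maternal windows were chr11:11000001-12000000 in Ezh2m+/p+ (16 maternal peaks, with 12 in Ezh2m-/p+), and chr11:7000001-8000000 and chr11:8000001-9000000 in Ezh2m-/p+ (21 each, with 14 and 15 in Ezh2m+/p+). Most peaks of the last pair were assigned to Igfbp3, a binding protein of insulin-like growth factors, and to Tns3, a focal adhesion protein. Igfbp3 had 11 and 15 maternal peaks (39.99 and 64.4 kb), all at a distance from the gene, and 3 and 5 paternal peaks (5.00 and 12.2 kb). Tns3 had 18 and 22 maternal peaks (54.0 and 64.6 kb) and 14 and 24 paternal peaks (26.0 and 50.2 kb), so a window with many maternal peaks need not lack paternal ones. The window chr11:22000001-23000000, with B3gnt2, Commd1 and the homeobox gene Otx1, had the largest ratio between the genotypes among the maternal windows named, with 4 Ezh2m+/p+ and 20 Ezh2m-/p+ maternal peaks, 1 and 9 of them assigned to B3gnt2, a glycosyltransferase gene.

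Positions were then compared between genotypes for each parental genome. In the maternal genome, 39 of the 555 peaks of Ezh2m+/p+ zygotes (7.03%, interval 5.18 to 9.46) lay over a peak of Ezh2m-/p+ zygotes, and 40 of 712 (5.62%, 4.15 to 7.56) did in the other direction. On the other chromosomes together these shares were 9.73% and 5.79%. The first lies above the interval of chromosome 11, which ranked 17 of 20, and the second lies inside its interval. In the paternal genome, 675 of the 1062 peaks of Ezh2m+/p+ zygotes (63.6%, 60.6 to 66.4) lay over a peak of Ezh2m-/p+ zygotes, and 645 of 1427 (45.2%, 42.6 to 47.8) did in the other direction. The others together had 66.3% and 45.7%, both inside these intervals. With a reciprocal overlap of 50% the shares of Ezh2m+/p+ peaks were 3.42% (maternal) and 35.2% (paternal), and among peaks with a fold over 10 they were 4.09% and 43.2%. Under each of these settings paternal positions were shared far more often than maternal positions on chromosome 11, while the number of maternal peaks per window had the rho of 0.73 given above.

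Maternal and paternal peaks of 1 genotype seldom overlapped. In Ezh2m+/p+ zygotes 4 of 555 maternal peaks did (0.721%, interval 0.281 to 1.84), and in Ezh2m-/p+ zygotes 2 of 712 (0.281%, 0.0771 to 1.02). On the other chromosomes these shares were 0.385% and 0.427%, inside both intervals. The 4 were assigned to Cobl (an actin nucleator), Trim11 (a ubiquitin ligase), Rap1gap2 and Tspoap1, and the 2 to Igfbp3 and Tns3. The median distance from a maternal peak to the nearest paternal peak was 170 kb in Ezh2m+/p+ and 115 kb in Ezh2m-/p+, and 39 (7.03%) and 79 (11.1%) of the maternal peaks lay within 10 kb of a paternal peak.

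**Figure D3:**
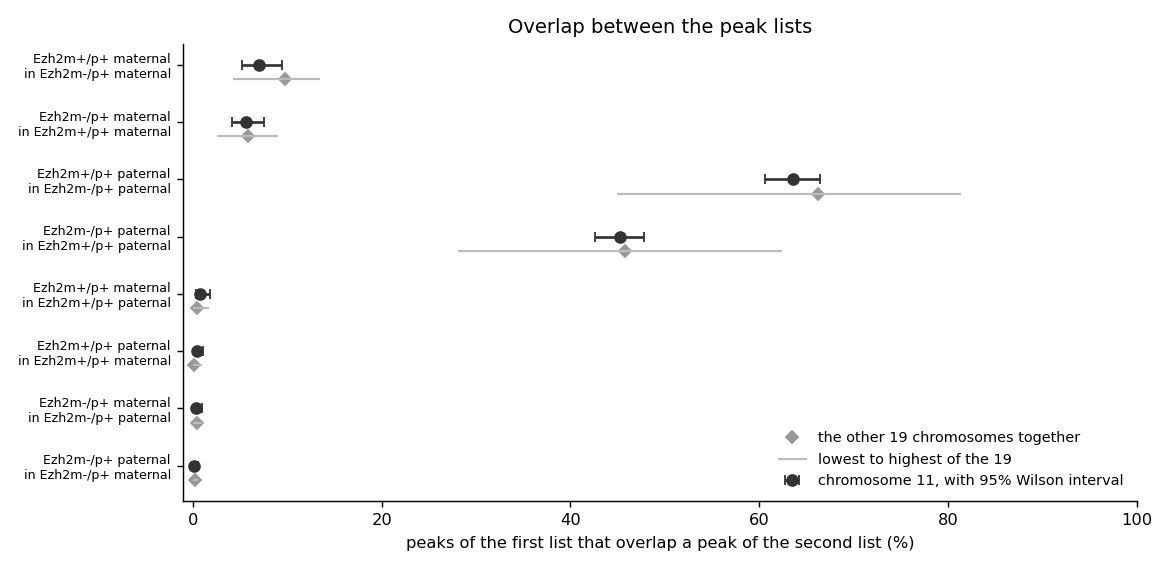
Share of the peaks of a first list that overlap a peak of a second list (horizontal axis, %), 1 row per pair of lists, with points for chromosome 11, bars for its 95% Wilson interval, diamonds for the other 19 chromosomes together and lines from the lowest to the highest of them. The paternal genomes of the genotypes share 63.6% and 45.2% of their peaks, the maternal genomes 7.03% and 5.62%, and the maternal and paternal genomes of 1 genotype under 1%.

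The fold over input that the lists give for each peak is not a smooth scale, which bears on every fold printed here. On chromosome 11 the folds were divided into a lower and an upper group in every list. The limit was set after seeing them, at 12 for maternal and 30 for paternal peaks. For paternal peaks it is a chosen cut, and folds lay close to it, as 30.6 at Myo1g in Ezh2m+/p+ and 29.6 at Cabp7 in Ezh2m-/p+. The upper group held 38.2% of the Ezh2m+/p+ maternal, 71.1% of the Ezh2m-/p+ maternal, 64.4% of the Ezh2m+/p+ paternal and 36.2% of the Ezh2m-/p+ paternal peaks, and on the other chromosomes 38.3%, 74.6%, 66.4% and 38.7%. Upper folds were whole multiples (within 0.001 of the multiple) of 1 step per list in 97.6%, 99.4%, 90.8% and 84.7% of the peaks. The step was 1.34 in the Ezh2m+/p+ maternal, 0.765 in the Ezh2m-/p+ maternal, 12.04 in the Ezh2m+/p+ paternal and 15.8 in the Ezh2m-/p+ paternal list. The median upper fold was 31 and 34 steps in the maternal lists and 4 and 5 steps in the paternal lists. Peaks of the upper group were shorter, with medians of 2599, 1799, 1399 and 1599 bp against 3199, 3199, 2399 and 2199 bp in the lower group. The lists do not hold the input reads under a peak, by which a fold is divided, so a large fold can stand for few input reads, and their part in the upper group was not tested. A fold is therefore given below as the deposited value of its own list and is not compared between lists.

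**Figure D4:**
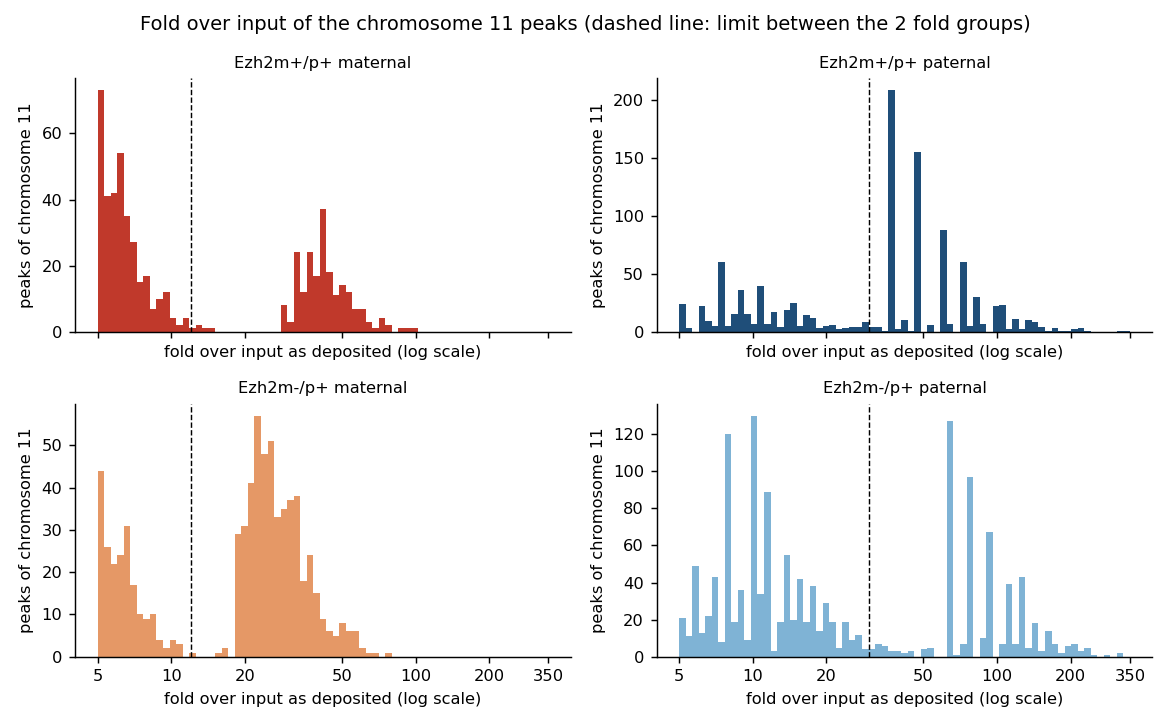
Number of chromosome 11 peaks (vertical axis) by fold over input as deposited (horizontal axis, log scale) in the 4 lists, with a dashed line at the limit between the lower and the upper group (12 maternal, 30 paternal). The limit was set after seeing the folds, and most paternal upper folds stand in separate columns a fixed step apart (12.04 and 15.8).

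The peaks of largest fold lay in or near genes of several kinds. In the Ezh2m+/p+ maternal list they were an intronic peak of Cobl (chr11:12393001-12399799, 6799 bp, fold 102), a peak in Nufip2 near Cryba1, a lens crystallin gene (chr11:77728401-77734799, fold 93.8), and a peak 462 kb from the start of Tns3 (chr11:8000601-8006199, fold 88.5). In the Ezh2m-/p+ maternal list they were an intronic peak of Adamts2 (chr11:50678201-50682599, fold 77.2), a peak 16.9 kb before Clint1, a clathrin adaptor gene (chr11:45830001-45835199, fold 67.3), and a peak within 1 kb of a start of Thra, the thyroid hormone receptor alpha gene (chr11:98754001-98758799, fold 64.2). In the Ezh2m+/p+ paternal list they were a peak in Ascc2 assigned to Uqcr10 (chr11:4684201-4689199, fold 331), a peak in Ankrd36 assigned to Mrps24 (chr11:5688601-5694599, fold 325) and a peak 15.2 kb before Ap1b1, a clathrin adaptor subunit gene (chr11:4968201-4971599, fold 241). In the Ezh2m-/p+ paternal list they were a peak in an intron of Urgcp (chr11:5755201-5758199, fold 315), a peak 147 kb from the start of Elac2 (chr11:64827801-64832399, fold 315) and a peak in an intron of Slc39a11, a zinc transporter gene (chr11:113329601-113335199, fold 284).

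Peaks were longest in the Ezh2m+/p+ maternal list, with a median of 2999 bp, followed by 2199 bp in the Ezh2m-/p+ maternal, 1799 bp in the Ezh2m-/p+ paternal and 1599 bp in the Ezh2m+/p+ paternal list. The other chromosomes together had the same medians in the maternal lists, and 1999 and 1799 bp in these paternal lists. The longest maternal peak of Ezh2m+/p+ zygotes spanned 20799 bp at chr11:54225201-54245999, next to Csf2, the gene of the cytokine GM-CSF, and its neighbour Il3 carried peaks in both maternal lists (chr11:54266001-54269999, fold 5.53, and chr11:54262201-54268399, fold 6.88). No peak was assigned to Csf2 in the other 3 lists. The longest maternal peak of Ezh2m-/p+ zygotes had 11799 bp and lay 254 kb from the start of Igfbp3. The longest Ezh2m+/p+ paternal peak had 13799 bp and lay in an intron of Camk2b, which encodes a calcium/calmodulin-dependent kinase of neurons (chr11:6045801-6059599, fold 14.7). Peaks of 10 kb or more numbered 2, 2 and 3 in these lists and 17 in the Ezh2m-/p+ paternal list.

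The peaks were richer in G and C bases than the chromosome and held fewer repeats. Their median GC content was 46.3% and 46.5% in the maternal lists and 46.2% and 45.8% in the paternal lists of Ezh2m+/p+ and Ezh2m-/p+ zygotes, against 43.8% for the chromosome. The corresponding medians on the other chromosomes were 45.5%, 45.5%, 44.6% and 43.8%. Soft-masked repeat bases made up a median of 21.7%, 19.5%, 19.1% and 19.5% of a peak, against 30.6% of the chromosome. In peaks of the other chromosomes the medians were 20.2%, 19.3%, 21.0% and 21.6%. The authors kept uniquely mapped reads, which repeats can lack, so the whole chromosome is not a matched background. The part of mapping in these differences was not tested. The ratio of observed to expected CpG was 0.18 in every list at the median, below the 0.20 of the chromosome, so the typical peak was not a CpG island.

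Promoters, defined by the authors' annotation as the 3 kb around a start, took 20.2% (interval 17.1 to 23.7) of the Ezh2m+/p+ maternal and 20.6% (17.8 to 23.8) of the Ezh2m-/p+ maternal peaks. On the other chromosomes together these shares were 15.3% and 16.2%, below both intervals. Chromosome 7 was higher than chromosome 11 in both maternal lists, with 23.4% and 25.4%, and chromosome 11 ranked 2. For the paternal peaks they were 17.9% (15.7 to 20.3) and 19.6% (17.6 to 21.7), with 17.3% and 16.8% elsewhere. Distal intergenic peaks made up 31.4% and 36.2% in the maternal lists, and 40.02% and 38.1% in the paternal lists, and introns 28.3% and 28.1%, and 26.3% and 27.8%. Elsewhere distal peaks were 34.2%, 35.8%, 40.2% and 40.9% and intronic peaks 31.8%, 32.0%, 28.3% and 27.2%. These lie inside the intervals of chromosome 11 except for the Ezh2m-/p+ paternal distal share (35.6 to 40.6) and the Ezh2m-/p+ maternal intron share (24.9 to 31.5), which were lower on chromosome 11. Chromosome 11 ranks 2 in genes per Mb, and the part of gene density in the promoter share was not tested.

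RefSeq promoter windows (250 bases before to 50 after a start) were overlapped by a peak in 24 of 2289 cases (1.05%, interval 0.706 to 1.56) in the Ezh2m+/p+ maternal, 41 (1.79%, 1.32 to 2.42) in the Ezh2m-/p+ maternal, 59 (2.58%, 2.00 to 3.31) in the Ezh2m+/p+ paternal and 99 (4.33%, 3.57 to 5.24) in the Ezh2m-/p+ paternal list. Over chromosomes 1 to 19 and X the shares were 0.797%, 1.31%, 3.29% and 4.67% in the same order, which lie inside these intervals except for the second, just below its own. Only the Il3 window, shown above, was overlapped in both maternal lists. In the paternal lists 39 windows of 33 genes were overlapped in both, and their median was 21 CpG in the whole window, against 10 in the 2108 windows without a peak. Windows overlapped in the Ezh2m+/p+ paternal list alone had a median of 4 and those in the Ezh2m-/p+ paternal list alone 11, and over each whole paternal list it was 9 and 13. Haspin, a mitotic histone H3 kinase gene (Ezh2m-/p+ maternal and Ezh2m+/p+ paternal), and Qrich2 (Ezh2m+/p+ maternal and Ezh2m-/p+ paternal) were the only genes of the chromosome with a RefSeq window overlapped by a maternal and by a paternal peak, in both cases of different genotypes. By the broader annotation within 1 kb of any transcript start, 64 and 86 genes had a promoter peak in the maternal lists, and 9 in both. In the paternal lists 96 and 150 genes had one, and 71 in both. Shares over all chromosomes were not computed for promoters shared between lists, so these counts only describe chromosome 11. The maternal 9 included Cntrob, Fbxl20 and Nf1, the neurofibromin gene (chr11:79337601-79341399, fold 6.03, and chr11:79336601-79338999, fold 41.3), and also Bcas3 and Vps53. The peaks of largest fold of the genotypes did not overlap at Bcas3, Vps53, Cntrob and Slc22a4, nor at 15 of the paternal 71, Npepps among them. The paternal 71 included Gm12171, Npepps, Lasp1, Gjc1 (the gap junction protein connexin 45), Ankfn1 and Sap30l, a subunit gene of histone deacetylase complexes (chr11:57801201-57803399, fold 60.2, and chr11:57801001-57804799, fold 5.12).

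Of the 1637 protein-coding genes, 202 (12.3%, interval 10.8 to 14.0) had a peak in their body in the Ezh2m+/p+ maternal list, where the share over all chromosomes was 9.79%. In the Ezh2m-/p+ maternal list 267 (16.3%, 14.6 to 18.2) did, against 14.2% over all. In the paternal lists 235 (14.4%, 12.7 to 16.1) and 291 (17.8%, 16.0 to 19.7) did, against 14.8% and 18.1%, which lie inside the intervals. The maternal excess uses the same peaks that chose the chromosome, so nothing is read from it. Genes with a peak were long, with median lengths of 55.7, 45.0, 39.8 and 33.8 kb against 10.9 to 11.8 kb for genes without one, and gene length moves with every gene count below. Some 607 genes (37.1%) had a peak in any list. Both maternal lists shared 86 genes (5.25%), both paternal lists shared 202 (12.3%), and 100 genes (6.11%) had a maternal and a paternal peak. The shares of such joint counts over all chromosomes were not computed, also for the genes with a peak in all 4 lists below. Nothing is therefore read from them about chromosome 11.

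In 26 genes a peak was found in all 4 lists, in the order Ezh2m+/p+ maternal, Ezh2m-/p+ maternal, Ezh2m+/p+ paternal and Ezh2m-/p+ paternal, which is kept in the lists of counts that follow. Ebf1, a transcription factor gene of B cell and neuronal development, had 7, 8, 7 and 7 peaks over 391 kb, and none of its maternal peaks overlapped a paternal peak of the same genotype. Tns3 had 6, 8, 5 and 8, Prkca (protein kinase C alpha) 4, 5, 7 and 7, Sgcd (delta-sarcoglycan, of the dystrophin complex) 6, 5, 2 and 3, and Cobl 8, 5, 2 and 2. Meis1, a homeobox gene of blood and limb development, had 1, 3, 3 and 5. Others, each with 8 peaks or fewer in every list, were Grb10, Kcnip1, Gria1, Arhgap44, Rap1gap2, Vps53, Glod4, Abr, Myo1d, Skap1, Plxdc1, Itgb3, Cacng5, Cep112, Map2k6, Slc39a11, Rnf157 and Ube2o.

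The genes with the most peaks differed between the parents. Rptor, which encodes the mTORC1 subunit raptor, had 9, 4, 0 and 0 peaks over 297 kb, and Asic2 had 8, 5, 0 and 0 over 1088 kb. Msi2, an RNA-binding protein gene of stem cells, had the reverse pattern with 0, 0, 13 and 28 peaks over 379 kb. Znrf3, a membrane ubiquitin ligase that removes Wnt receptors, had 0, 0, 15 and 21 peaks over 169 kb, Galnt10 0, 0, 13 and 17, and Hs3st3a1 0, 0, 12 and 18. Tenm2, a synaptic adhesion gene of 1229 kb, had 0, 1, 15 and 23, and Arhgap23 0, 1, 14 and 8. Stx8, a syntaxin of endosomes, had 4, 7, 1 and 0, and Specc1 and Bcas3, named above, had maternal peaks only.

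Imprinted genes are the loci where parental chromatin is known to differ in later development. Of the 4 on the fixed list, Grb10, Ddc and Commd1 had peaks. For this and the gene groups below, the shares over all genes were 9.79%, 14.2%, 14.8% and 18.1% in the order kept above. Grb10, an adaptor of insulin signalling that is expressed from the maternal allele in most tissues and from the paternal allele in neurons, had 2, 3, 1 and 1 peaks in its body. Its paternal peaks fell on nearly the same place in both genotypes, chr11:11936201-11937799 (fold 144) and chr11:11936201-11937999 (fold 17.1), and a maternal peak was shared at chr11:11963201-11966799 (fold 5.70) and chr11:11962801-11964999 (fold 40.5). Its neighbour Ddc, the dopa decarboxylase gene, had 2 Ezh2m+/p+ maternal peaks and none in the other lists. For Commd1, the Ezh2m-/p+ maternal list held 3 peaks and the others none.

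Patterning and lineage transcription factors had a peak in 7, 9, 3 and 7 of 36 genes. Beside Ebf1, Meis1 and Hand1, these were Bcl11a, a regulator of fetal globin and B cells, with 1, 0, 1 and 3 peaks, Ikzf1 (the lymphoid factor Ikaros) with 1, 1, 0 and 1, Stat3 with 1, 1, 0 and 1, Stat5b with 2, 1, 0 and 0, and Stat5a with 0, 1, 0 and 0. Thra had 2 peaks and the retinoic acid receptor gene Rara 1, both only listed in the Ezh2m-/p+ maternal genome, and Hlf had 1 in the Ezh2m+/p+ maternal genome. The forebrain homeobox gene Otx1 had 1 Ezh2m-/p+ maternal and 1 Ezh2m-/p+ paternal peak. At Bcl11a (chr11:24078056-24174123, plus strand) a paternal peak in each genotype covered an annotated transcript start inside the gene, chr11:24139401-24144799 (fold 13.5) in Ezh2m+/p+ and chr11:24142201-24144799 (fold 173) in Ezh2m-/p+, and the other paternal peaks of Ezh2m-/p+ in the gene lay upstream of the latter.

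The Hoxb cluster, a classic Polycomb target of later development, had a peak in 1 of 10 genes, in the Ezh2m-/p+ maternal list. The share over all genes in that list was 14.2%. This peak lay at the start region of Hoxb5 and overlapped Hoxb6 (chr11:96301201-96302999, 1799 bp, fold 22.2), and the other 3 lists had none in any Hoxb gene. The genes of Polycomb proteins and other chromatin regulators had a peak in 1, 2, 0 and 1 of 20, beside the shares over all genes given above. Ezh1 itself, the EZH2 paralog, had 1 peak in the Ezh2m+/p+ maternal list (chr11:101196001-101198399, 2399 bp, fold 5.03), Bptf (the large subunit of the NURF remodeler) had 2 and Phf12 1 in the Ezh2m-/p+ maternal list, and Chd3 1 in the Ezh2m-/p+ paternal list. Suz12, the core PRC2 subunit gene, had no peak in its body, and 1 Ezh2m+/p+ maternal peak (chr11:79988001-79989799, fold 36.2) and 1 Ezh2m+/p+ paternal peak (chr11:79980801-79981999, fold 36.1) lay before its start.

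Secreted signals and their regulators had a peak in 2, 2, 3 and 4 of 21 genes. Slit3, an axon guidance ligand, had 0, 0, 8 and 12 peaks, Ntn1 (netrin-1) 0, 0, 2 and 4, and Znrf3 the counts given above, so the paternal peaks of this group sat mainly in these 3 genes. Rnf43, the close relative of Znrf3, had 1, 2, 0 and 0. Fgf18 had 1 Ezh2m-/p+ paternal, Igfbp4 1 Ezh2m+/p+ maternal and Sparc 1 Ezh2m-/p+ maternal peak.

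Cytokine and chemokine genes, which lie in clusters on chromosome 11, had a peak in 2, 2, 0 and 0 of 18. These were Il3 in both maternal lists, Il12b in the Ezh2m+/p+ and Ccl1, whose gene model spans 129 kb, in the Ezh2m-/p+ maternal list. GABA, glutamate and glycine receptor genes had a peak in 2, 2, 1 and 2 of 7. The AMPA receptor gene Gria1 had 3, 1, 2 and 6 peaks, and Glra1 had 1, 2, 0 and 0. Ion channel genes had a peak in 8, 5, 6 and 5 of 19. Asic2, described above, and Kcnip1 (a potassium channel-interacting protein, 3, 2, 1 and 1) had the most, while Cacna1g, Kcnh4, Kcnj12 and Trpv2 had 1 peak each in the Ezh2m+/p+ maternal list alone. The pain receptor Trpv1 had 0, 0, 1 and 1.

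Of the structural gene families, myosin heavy chains had a peak in 1, 1, 1 and 2 of 7, with the non-muscle gene Myh10 at 3, 1, 0 and 0 and the fast muscle gene Myh4 at 0, 0, 1 and 1. Type I keratins had a peak in 0, 3, 1 and 1 of 26. Krt12 (of the corneal epithelium), Krt32 and Krt33b (of hair) had 1 each in the Ezh2m-/p+ maternal list, and Krt19, of simple epithelia and trophoblast, had 0, 0, 1 and 3. Collagens and integrins had a peak in 2, 3, 3 and 3 of 7, among them Itgb3 in all 4 lists, Itgae (0, 2, 3 and 3), Itgb4 (0, 0, 2 and 1) and Col23a1 (5, 1, 0 and 0). None of the 5 alpha globin genes, which are short (median 0.82 kb), had a peak in any list. These groups were chosen with earlier results of the data known, and their counts are small, so no group is read as standing apart from the shares over all genes given above.

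**Figure D5:**
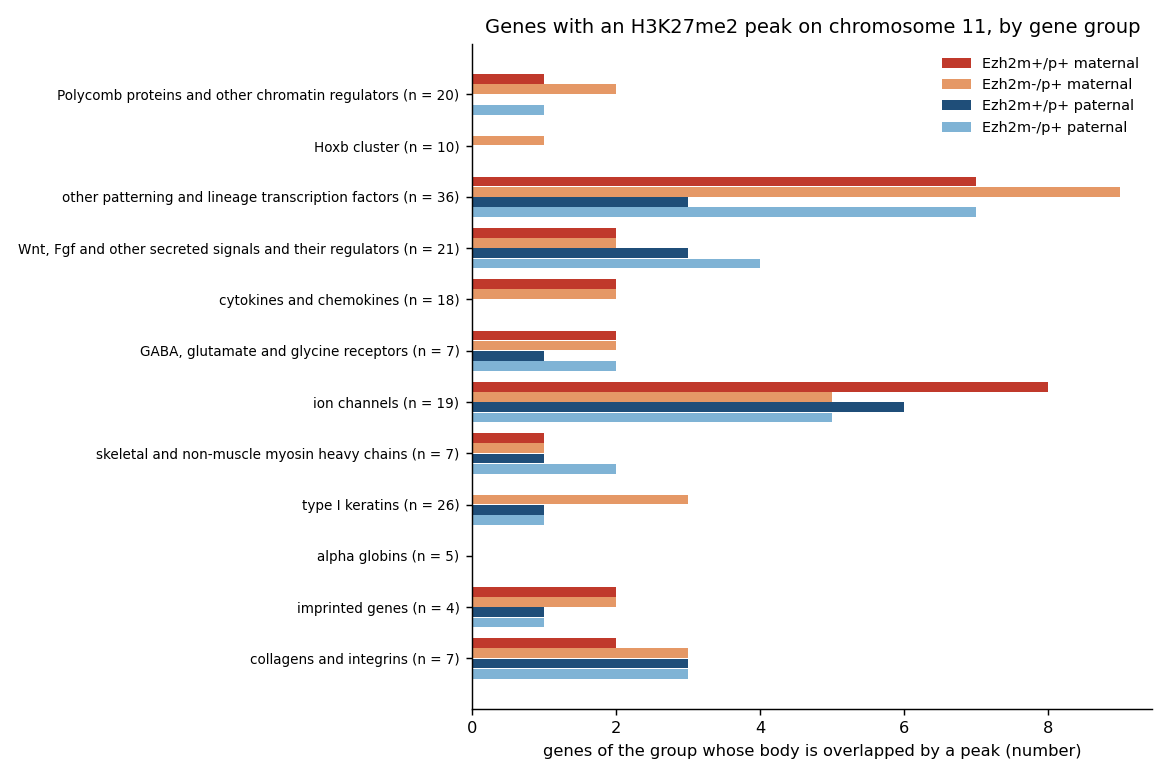
Number of genes with a peak in their body (horizontal axis) in 12 gene groups of chromosome 11 (vertical axis, with the group size n), 1 bar per peak list. Transcription factors and ion channels have the most genes with peaks (up to 9 of 36 and 8 of 19), cytokines and chemokines have maternal peaks only, and the alpha globins have none. Over all genes the shares ran from 9.79% (Ezh2m+/p+ maternal) to 18.1% (Ezh2m-/p+ paternal).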

How the data were processed

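H3K27me2 and input libraries of Ezh2m+/p+ and Ezh2m-/p+ zygotes (1 each) were sequenced with paired reads of 150 bp. The authors used Trimmomatic 0.38 for trimming, Bowtie2 for alignment (mm10), SAMtools and Picard for filtering, SNPsplit to assign reads to the maternal or paternal genome and SICER to call peaks against input. Their stated limits were a length over 1000 bp and a fold over 5 (the shortest deposited peaks span 999 bp from listed start to end), and ChIPseeker gave the annotation. Reads without a variant between the strains cannot be assigned, and variant density was not analysed here. The deposited peak lists hold, per peak, the ratio (fold) of H3K27me2 to input reads. Coverage was deposited as a fraction (the part of a chromosome under reads), printed here in percent, and 42 oocyte values beside it were not used. Read totals per parental genome are unknown, so depth is given only as coverage. The lists name the genotypes WT and EZH2, and these were matched to Ezh2m+/p+ and Ezh2m-/p+ through the study's reporting form together with the labels.

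Each peak was put in a 1 Mb window by its middle, and peaks sharing 1 bp or more were taken as overlapping. Genes were taken from GENCODE vM21 and, by the 897 gene identifiers of chromosome 11 (all 897 matched), from RefSeq, and base composition from GRCm38. A gene has a peak where its body shares a base with one. Calculations were made in Python 3.11.15 (pandas 2.3.3, numpy 2.4.6, matplotlib 3.10.9, scipy 1.17.1), and the overlap and interval routines were tested on simulated data. The members and gene lists were chosen with earlier results of these data known. Named by rule were, per list, the 3 peaks of largest fold, the longest peak, the 3 fullest windows and the 5 genes with most peaks, then genes with a peak in all 4 lists, the 5 promoters of largest fold shared between genotypes, and genes of the 12 lists. Genes in the peak-free stretches, the promoters overlapped in RefSeq windows, Urgcp, Sap30l and the fold groups were singled out after their values were seen. Some genes that the rule names are not reported here.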

Additional observations from a re-analysis of the deposited data

How the results depend on the processing

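Each genotype had 1 library, so the spread between zygote pools is unknown. No paired analysis was possible because each genotype had 1 library and the results come from no test. Depth per parental genome is unknown, and a region without a peak may lack assignable reads. Of 102 main values under alternatives chosen at the outset, 56 stayed within their interval or, for counts, within 1.5 times, and 46 did not. The cause was not tested except where fewer or joined peaks were counted by construction. With a fold over 10 there were 220 Ezh2m+/p+ maternal peaks, in 71.4% of windows. Ezh2m+/p+ paternal peaks were then in 79.8% of windows, which reverses the order of the parents in this genotype. Overlaps between genotypes at this limit were 4.09% (maternal) and 43.2% (paternal), and genes with a peak were 5.74%, 12.6%, 12.1% and 13.8% of all in the order used above. With a length over 2000 bp there were 375 Ezh2m-/p+ maternal, 336 Ezh2m+/p+ paternal and 598 Ezh2m-/p+ paternal peaks, shares of the paternal lists were 5.13% and 5.63%, Ezh2m+/p+ paternal peaks were 22.0% promoter, 21.1% intronic and 35.7% distal, Ezh2m-/p+ paternal peaks were 24.6% intronic, and median GC was 45.5%, 45.9% and 46.7% in the first 3 lists. By covered base pairs the paternal shares were 5.13% and 5.22%, Ezh2m+/p+ paternal promoters 20.5% and Ezh2m-/p+ paternal introns 25.2%. Joining peaks under 10 kb apart left 634 and 779 paternal peaks. Windows of 0.5 Mb with a peak were 73.5%, 79.8%, 68.9% and 72.7%, and windows of 2 Mb 96.6%, 98.3% and 88.1% in the first 3 lists. A reciprocal overlap of 50% left 3.42% of maternal and 35.2% of paternal Ezh2m+/p+ peaks shared, and as a share of the other list the paternal value was 45.2%. Maternal peaks within 10 kb of a paternal peak were 7.03% and 11.1%. Genes named by the deposited annotation were 18.2%, 22.1%, 19.7% and 22.4%, and with 3 kb on both sides of the body 14.8%, 19.4%, 17.3% and 20.8%. The maternal lists shared fewer positions than the paternal lists under each of these overlap settings. Of 105 further values (gene groups, fold groups, peak-free stretches), under alternatives added after seeing the data, 78 stayed and 27 did not.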
